A study of Mus musculus with 6 samples.

Results

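The growth hormone and STAT5 axis of mouse liver was followed through 10 genes, chosen by symbol from the 24411 genes of the deposited count tables. They are the receptor genes Ghr and Prlr, the transcription factor genes Stat5a and Stat5b, the feedback genes Cish and Socs2, the repressor genes Bcl6 and Cux2, and the liver genes Hsd3b5 and Slco1a1. The set was put together with results of the comparison of Cyr61 KO with control livers in view, so the values of these 10 genes in that comparison are given as a description, with no test. Bulk RNA sequencing was done on liver in 3 Cyr61 KO and 3 control libraries. Both groups carry the strain label Cyr61fl/fl, came from males aged 24 weeks, and had 12 weeks on a diet that causes non-alcoholic steatohepatitis (NASH). The labels do not say how or in which cells Cyr61, a secreted matricellular protein gene, was removed and do not tie libraries to individual mice. The series title concerns CYR61 in liver fibrosis and macrophage signalling.

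Growth hormone from the pituitary binds its receptor on hepatocytes, which activates the kinase JAK2 and through it STAT5, mostly STAT5B in this tissue. In male rodents the hormone arrives in pulses, and the pulses drive the male pattern of liver expression, while a steadier supply in females drives the female pattern. STAT5 switches on its own brakes, the SOCS family proteins CIS and SOCS2, and represses or induces further regulators such as BCL6 and CUX2.

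The 3 Cyr61 KO replicates held 3.77, 2.66 and 3.14 CPM of Cyr61 (TMM-normalised counts, scaled to library size), against 15.6, 32.4 and 27.8 CPM in control replicates 1, 2 and 3. The Y-linked gene Ddx3y ran from 65.0 to 74.4 CPM in Cyr61 KO and from 57.8 to 76.8 CPM in control livers, and Xist was at 0.505 CPM or less in all 6 libraries, which fits the label male. Gene counts ran from 31133292 to 40377742 in Cyr61 KO libraries and from 21032878 to 34827903 in control libraries. Control replicate 2 differed from the other libraries, with 50.9% of its reads in genes. The summed level of 9 hepatocyte markers was 133800, 109000 and 105900 CPM in Cyr61 KO libraries, against 95930, 42530 and 106900 CPM in control libraries. The low value belongs to control replicate 2. The summed level of 9 macrophage markers was 261, 173 and 486 CPM in Cyr61 KO livers, against 984, 1217 and 711 CPM in control livers, and that of 13 T, NK and B cell markers was 14.8, 13.6 and 30.4 CPM against 52.0, 190.0 and 34.2 CPM. All 9 macrophage and all 13 lymphocyte markers had a negative log2 fold change (Cyr61 KO over control). So had all 7 cholangiocyte markers, summing to 97.4, 80.8 and 159 CPM in Cyr61 KO livers, against 275, 1375 and 236 CPM in control livers, with the high value in control replicate 2. Of 8 stellate cell markers 6 were negative. Their sums were 284, 390.1 and 500.1 CPM in Cyr61 KO livers, against 757, 1185 and 696 CPM in control livers. By edgeR, 3 macrophage, 1 lymphocyte, 0 cholangiocyte and 3 stellate cell markers were called lower (adjusted p below 0.05), as were 2.37% of all tested genes. Endothelial markers went mostly the other way. Of 7, 5 were positive and 2 were called higher, where 1.07% of all tested genes were called higher. Their sums were 189, 219.5 and 286 CPM in Cyr61 KO livers, against 129, 221 and 136 CPM in control livers. The part of these cell types in the values that follow was not tested. In whole tissue, fewer cells of a type and less RNA per cell cannot be told apart.

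For both receptor genes the lowest Cyr61 KO value lay above the highest control value. Ghr, the growth hormone receptor gene on the minus strand of chromosome 15 from 3317760 to 3583492 (GRCm38), reached 442, 602 and 421 CPM in the Cyr61 KO libraries, listed by replicate number. In control replicates 1, 2 and 3 it was at 325.5, 167 and 304 CPM. The means were 488 ± 99.0 CPM in Cyr61 KO and 266 ± 85.9 CPM in control livers (SD, n = 3 each), a log2 fold change of 0.88 ± 0.33 (SE). The lowest value was again that of control replicate 2, and without that library the log2 fold change was 0.66. Prlr, the prolactin receptor gene on the plus strand of chromosome 15 from 10177238 to 10349180, is a female-biased gene of mouse liver. It was at 28.4, 50.5 and 31.2 CPM in Cyr61 KO livers, against 6.80, 15.5 and 20.5 CPM in control livers. Its means were 36.7 ± 12.0 CPM and 14.2 ± 6.92 CPM (SD, n = 3 each), a log2 fold change of 1.37 ± 0.40 (SE). Control replicate 1 held the lowest Prlr value, and Ghr had 47.9 times as many counts as Prlr there, against 10.8 to 15.5 times in the other 5 libraries. When libraries were scaled to the summed hepatocyte markers instead, a setting added after the data were seen that moved the median of all genes to -0.75, the log2 fold changes of Ghr and Prlr were 0.33 and 0.64.

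The STAT5 genes had smaller log2 fold changes than the receptor genes, but Stat5b lay within its SE of Ghr. Stat5b, which lies on the minus strand of chromosome 11 from 100780731 to 100850724, encodes the form that carries most of the growth hormone signal in liver. It was at 98.4, 87.3 and 63.6 CPM in Cyr61 KO livers and at 62.4, 37.6 and 54.6 CPM in control livers. The groups did not overlap, but Cyr61 KO replicate 3 lay barely above control replicate 1. The means were 83.1 ± 17.8 CPM and 51.5 ± 12.7 CPM (SD, n = 3 each), a log2 fold change of 0.69 ± 0.26 (SE). Stat5a, its neighbour on the plus strand from 100859351 to 100885169, was at 17.0, 17.1 and 19.7 CPM in Cyr61 KO livers and at 16.4, 12.6 and 13.2 CPM in control livers. Its log2 fold change was 0.35 ± 0.20 (SE). Scaled to hepatocyte markers, the log2 fold change of Stat5b was 0.06 and that of Stat5a was -0.33, so the sign for Stat5a depended on the scaling. Alb alone made up 67.3% to 76.8% of the summed hepatocyte markers in Cyr61 KO livers and 56.0% to 69.5% in control livers, at a log2 fold change of 0.67 where the median marker was at 0.28, so this scaling rests mostly on 1 gene. The ratio of Stat5b to Stat5a counts was 5.78, 5.12 and 3.23 in Cyr61 KO libraries and 3.82, 2.99 and 4.12 in control libraries, and the groups overlapped. Of the 50-base windows in its longest coding transcript, Stat5a shared 15.8% with Stat5b, and Stat5b shared 11.8% with Stat5a. Whether reads from these stretches were lost was not tested.

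The feedback genes did not separate the groups, and each was high in a single Cyr61 KO library. Cish encodes CIS, a STAT5-induced inhibitor of cytokine receptors, and lies on the plus strand of chromosome 9 from 107296026 to 107302784. It was at 29.1, 85.5 and 22.7 CPM in Cyr61 KO livers and at 42.3, 39.9 and 19.7 CPM in control livers, with its peak in Cyr61 KO replicate 2. Socs2 encodes a second brake, whose loss in mice gives oversized animals, and lies on the minus strand of chromosome 10 from 95385362 to 95417180. It was at 16.9, 20.04 and 63.4 CPM in Cyr61 KO livers and at 20.1, 35.4 and 37.8 CPM in control livers, with its peak in Cyr61 KO replicate 3. The log2 fold changes of Cish and Socs2 were 0.43 ± 0.50 and 0.11 ± 0.49 (SE). Without Cyr61 KO replicate 2, Cish was at -0.37. Socs2 was at -0.74 without Cyr61 KO replicate 3 and at -0.10 without control replicate 1, so either sign depended on which libraries were kept. The ratio of Cish to Socs2 counts was 1.72, 4.26 and 0.358 in Cyr61 KO libraries and 2.11, 1.13 and 0.521 in control libraries. It thus ran over a wider range among the knockouts than among the controls. Scaled to library totals, Socs2 was at -0.12, where the median of all genes was at -0.30, and scaled to hepatocyte markers both genes were below 0, Cish at -0.36 and Socs2 at -0.62.

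The repressor genes also overlapped between groups. Bcl6, a male-biased repressor gene that STAT5 holds down in liver and that lymphocytes also express, lies on the minus strand of chromosome 16 from 23965052 to 23988852. It was at 66.1, 12.0 and 15.2 CPM in Cyr61 KO livers and at 27.8, 20.8 and 13.8 CPM in control livers. Cyr61 KO replicate 1 was the highest of the 6 libraries and replicate 2 the lowest. The log2 fold change was 0.58 ± 0.60 (SE), and -0.60 without Cyr61 KO replicate 1. The summed lymphocyte markers were at 14.8 CPM in that library, below every control library, and their part in the Bcl6 values was not tested. Cux2, the female-specific repressor of male genes, on the minus strand of chromosome 5 from 121856366 to 122050102, had 4, 7 and 20 counts in Cyr61 KO libraries and 4, 12 and 5 counts in control libraries. This was at most 0.561 CPM, and the gene did not pass the filter on low counts. Its highest value was in Cyr61 KO replicate 3, followed by control replicate 2.

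The letters to which STAT5 binds, TTCNNNGAA, which read the same on both strands, were searched from 250 bases before to 50 bases after each start site that RefSeq gives for the axis genes (GRCm38.p6). The table held 16 such promoters for 9 of the 10 genes, all but Socs2. Of these, 4 promoters of 3 genes held 7 matches, while 8.30% of all 32851 promoters of the same length held at least 1 match and 0.457% at least 2. The 4 stretches are printed because they hold every match found in the searched windows of the axis genes and because Cish and Bcl6 are known STAT5 targets. The matches are in capitals. A match describes letters and does not show that the factor binds. Cish, chr9:107296629-107296678, plus strand, reaching from 30 bases before to base 20 after the start:
Cish: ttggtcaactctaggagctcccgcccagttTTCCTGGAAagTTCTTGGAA
Bcl6, chr16:23981333-23981481, minus strand, at the second of its listed starts:
Bcl6 second start: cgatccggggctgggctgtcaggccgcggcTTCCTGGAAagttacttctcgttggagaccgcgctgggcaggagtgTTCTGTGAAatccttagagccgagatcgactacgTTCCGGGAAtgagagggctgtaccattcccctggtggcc
Bcl6, chr16:23988932-23989000, minus strand, at its first listed start:
Bcl6 first start: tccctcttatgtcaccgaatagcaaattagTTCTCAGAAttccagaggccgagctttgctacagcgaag
Prlr, chr15:10223766-10223834, plus strand, at the second of its listed starts:
Prlr second start: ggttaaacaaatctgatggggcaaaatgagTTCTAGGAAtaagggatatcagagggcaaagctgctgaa
The promoters of Ghr, Stat5a, Stat5b, Cux2, Hsd3b5 and Slco1a1 held no match in these windows. The Hsd3b5 window, chr3:98645485-98645784, lay outside the stretch from 98618634 to 98630252 given for that gene below. The start of that stretch was not searched.

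The STAT5B-dependent male liver genes differed most. Slco1a1, which encodes an organic anion transporter of the hepatocyte membrane, lies on the minus strand of chromosome 6 from 141907282 to 141946962. It was at 318, 443 and 170.0 CPM in Cyr61 KO livers, against 17.4, 9.36 and 22.7 CPM in control livers. The lowest knockout value was several times the highest control value. The means were 310.2 ± 136 CPM and 16.5 ± 6.71 CPM (SD, n = 3 each), a log2 fold change of 4.23 ± 0.47 (SE). Hsd3b5, a male-specific steroid dehydrogenase gene on the minus strand of chromosome 3 from 98618634 to 98630252, was at 78.4, 106 and 6.81 CPM in Cyr61 KO livers. In control livers it was at 1.10, 0.826 and 2.97 CPM. Cyr61 KO replicate 3 was far nearer to the controls than to the other knockouts, though still above them, and the highest knockout value was 15.6 times the lowest. The means were 63.8 ± 51.3 CPM and 1.63 ± 1.17 CPM (SD, n = 3 each), a log2 fold change of 5.28 ± 0.96 (SE). In Cyr61 KO replicate 3 the counts of Slco1a1 were 24.9 times those of Hsd3b5, against 4.05 and 4.17 times in Cyr61 KO replicates 1 and 2 and 15.9, 11.3 and 7.64 times in the control libraries. Scaled to hepatocyte markers, the log2 fold changes of Slco1a1 and Hsd3b5 were 3.71 and 4.79.

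**Figure D1:**
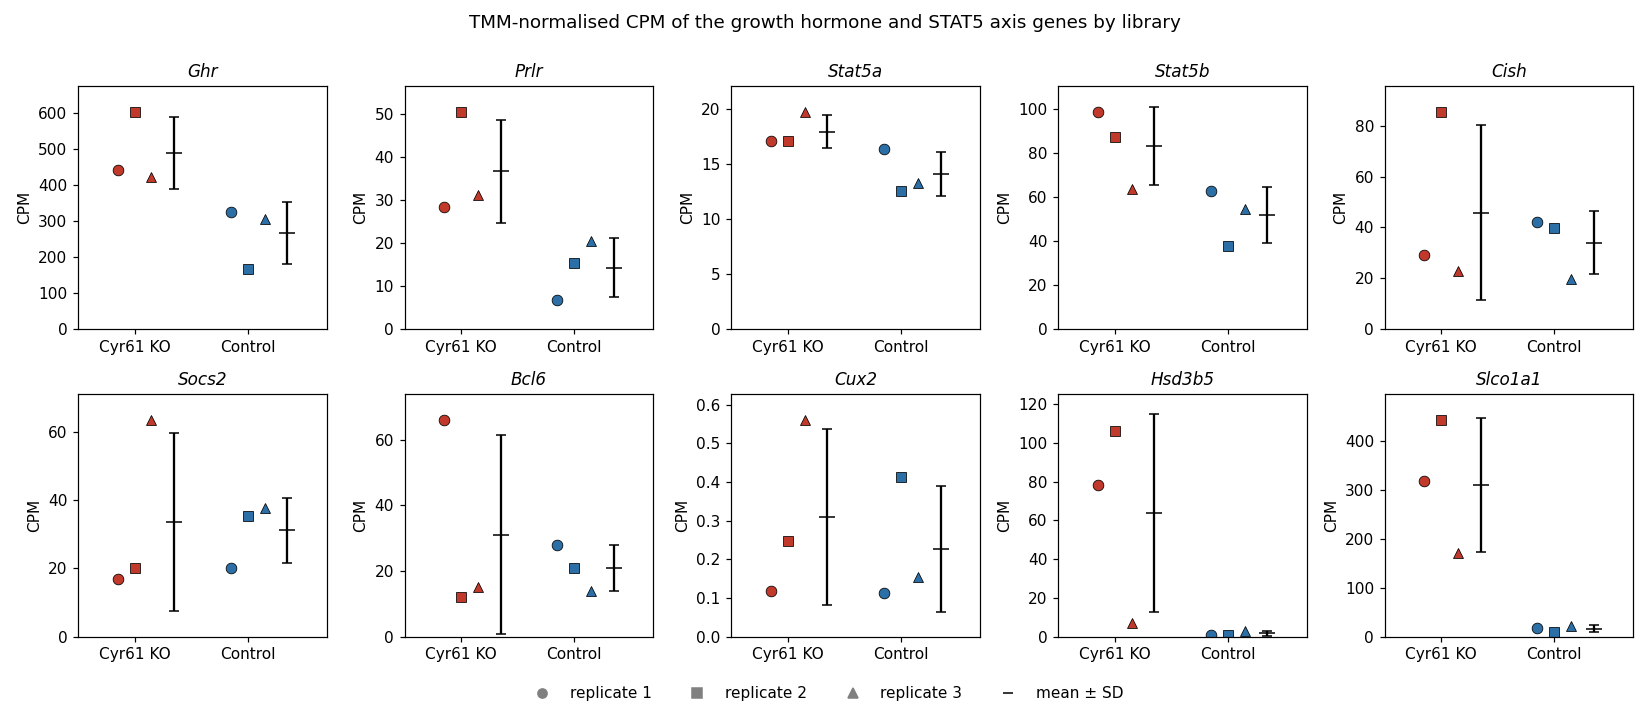
TMM-normalised CPM (vertical axis, linear) of the 10 axis genes in 3 Cyr61 KO and 3 control libraries, 1 symbol per library, with the mean and SD of each group beside them. Slco1a1 and Hsd3b5 stand far above the controls in Cyr61 KO replicates 1 and 2, Cyr61 KO replicate 3 has Hsd3b5 at 6.81 CPM and Socs2 at 63.4 CPM, and Cish and Bcl6 peak in Cyr61 KO replicates 2 and 1.

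Close relatives of the variable genes were read beside them. Of the 50-base windows of Hsd3b5, 21.2% also occur in transcripts of other genes, 18.2% in Hsd3b4. Hsd3b4 and Hsd3b6 had no counts in any library, where 3 counts would be 0.0841 to 0.106 CPM. Hsd3b2, a relative on the same stretch of chromosome 3, rose to 34.1 ± 4.65 CPM in Cyr61 KO livers, against 14.1 ± 1.60 CPM in control livers (SD, n = 3 each), a log2 fold change of 1.27 ± 0.20 (SE, edgeR adjusted p = 0.0237, higher in 3 of 3 libraries). Hsd3b3 and Hsd3b7 had log2 fold changes of 0.53 and 0.82 (edgeR adjusted p = 0.331 and 0.134). Of the windows of Hsd3b2, 25.5% also occur in transcripts of other genes, 11.1% in Hsd3b3. For Hsd3b3 these shares were 28.7%, and 27.2% in Hsd3b2. Whether reads from shared windows were lost was not tested. Among the transporters, Slco1b2, the main hepatic relative of Slco1a1, had a log2 fold change of 1.28 ± 0.36 (SE, edgeR adjusted p = 0.0772), Slco2b1 of 1.06 (0.106) and Slco1a4 of 0.97 (0.180). Of the other relatives, Cux1, Stat6 and Bcl6b were at 0.44, 0.21 and 0.00 (edgeR adjusted p = 0.167, 0.530 and 0.997). Hsd3b2 did not pass when libraries were scaled to hepatocyte markers (log2 fold change 0.60, edgeR adjusted p = 0.368) or to library totals (1.01, 0.0717). It also did not pass without Cyr61 KO replicate 1, Cyr61 KO replicate 2 or control replicate 1 (edgeR adjusted p = 0.0753, 0.116 and 0.0514).

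Of the 10 axis genes 9 passed the filter on low counts. In the test of all 13563 genes by edgeR's quasi-likelihood test, where 1.07% of genes were called higher, 2.37% lower and 3.44% either way at an adjusted p below 0.05, those calls held 2 of the 9, Hsd3b5 and Slco1a1, with 0 lower. Neither gene was among the calls without Cyr61 KO replicate 1. Hsd3b5 also missed the threshold with library totals and without Cyr61 KO replicate 2, control replicate 1 or control replicate 2. The 2 groups did not overlap, with Cyr61 KO above, in 6 of the 9, where 17.3% of all tested genes lay fully above and 17.9% fully below. The genes were picked with this comparison in view, so these counts repeat the choice; they are no test of the axis genes, and nothing is read from them.

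**Figure D2:**
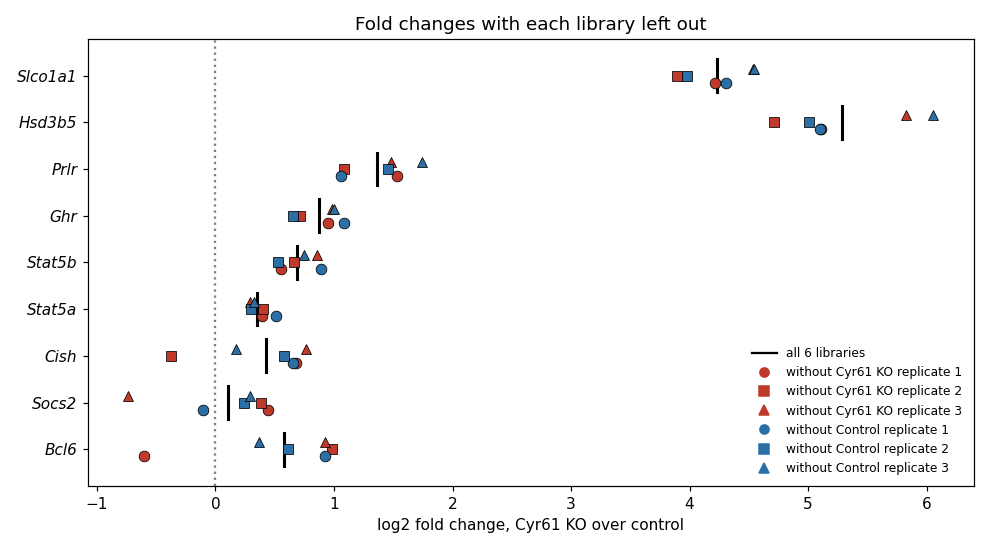
Log2 fold change of Cyr61 KO over control (horizontal axis) for the 9 axis genes that passed the filter, with all 6 libraries (black line) and with each library left out in turn (1 symbol per omitted library). Cish, Socs2 and Bcl6 cross 0 when 1 Cyr61 KO library is left out, Socs2 also without control replicate 1, while Slco1a1 stays between 3.90 and 4.55 and Hsd3b5 between 4.72 and 6.06.

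The spread within groups differed widely between the axis genes. The SD of log2 CPM within groups was 0.16 for Stat5a, larger than in 10.5% of the 12387 tested genes with a mean of at least 1 CPM. It was 0.35 for Stat5b and 0.42 for Ghr, near the middle of that range. Cish, Socs2 and Bcl6 had SDs of 0.84, 0.81 and 1.01, larger than in 93.4%, 92.5% and 96.4% of these genes, and Hsd3b5 had 1.67, larger than in 99.8%. Among the knockouts the highest library exceeded the lowest 3.76-fold for Cish, 3.75-fold for Socs2 and 5.51-fold for Bcl6, against 2.15-fold, 1.88-fold and 2.02-fold among the controls. With 3 libraries in a group these ratios are descriptions.

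The levels of different genes can be set side by side only per length, and their order depended on the length used. Per kilobase of merged exons, mean levels in Cyr61 KO livers were 58.8 CPM per kilobase for Slco1a1, 53.9 for Ghr and 41.2 for Hsd3b5, then 15.01 for Stat5b, 7.13 for Cish, 4.64 for Bcl6, 3.51 for Socs2, 2.51 for Stat5a, 2.39 for Prlr and 0.0307 for Cux2. In control livers they were 29.3 for Ghr, 9.31 for Stat5b, 5.29 for Cish, 3.26 for Socs2, 3.13 for Slco1a1, 3.11 for Bcl6, 1.97 for Stat5a, 1.05 for Hsd3b5, 0.929 for Prlr and 0.0225 for Cux2. Per kilobase of the longest coding transcript, Ghr came first in Cyr61 KO livers at 117 ± 23.7 and Slco1a1 followed at 79.5 ± 34.96 CPM per kilobase (SD, n = 3). On that scale Cish (16.1 ± 12.1), Stat5b (15.9 ± 3.41) and Socs2 (15.1 ± 11.7) were closer together in Cyr61 KO livers than their SDs. In control livers on that scale Ghr was at 63.6, Socs2 at 14.0, Cish at 11.9 and Stat5b at 9.89 CPM per kilobase. With either length Slco1a1, Ghr and Hsd3b5 had the highest means in Cyr61 KO livers, Ghr had the highest in control livers, and Cux2 had the lowest in both. The order of the other genes differed between the lengths.

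The genes most like 4 of the axis genes over the 6 libraries were looked up among 11849 genes, by the root mean square difference of log2 CPM after each gene was centred on its own mean. For Slco1a1 they were the cytochrome P450 genes Cyp2c54 (0.227) and Cyp2c37 (0.393) and then Plcxd1 (0.574). Cyp2c54 was at 162, 209 and 81.6 CPM in Cyr61 KO livers and at 11.4, 6.71 and 12.2 CPM in control livers. For Hsd3b5 the nearest were farther off, the major urinary protein gene Mup7 (0.927), Cyp2c54 (1.03) and Acpp (1.16). Mup7 was at 1162, 871 and 67.2 CPM in Cyr61 KO livers and at 21.6, 4.92 and 125 CPM in control livers, so that Cyr61 KO replicate 3 was below control replicate 3. For Socs2 they were Fam124a (0.304), Rad18 (0.327) and Sprn (0.340), and for Cux2, at its few counts, Arhgap31 (0.171), the endothelin receptor gene Ednrb (0.202) and Plekhg1 (0.208). The Cyp2c and Mup families hold near-identical copies, which makes the counts of single members uncertain.

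Of 25 further genes of the receptor's signalling, 23 were tested and 0 were called by edgeR. The unadjusted p was below 0.05 for 10 of the 23, and for 27.4% of all tested genes. DESeq2 called 3 (2 higher, 1 lower), and 16.8% of all tested genes. The median log2 fold change was 0.12, against -0.03 over all tested genes. The hormone genes Gh and Prl, which are pituitary genes, had at most 1 count per library. Jak1, the kinase gene with the highest level in the list, averaged 127 ± 11.2 CPM in Cyr61 KO and 113 ± 21.5 CPM in control livers (SD, n = 3 each), and Stat3 117 ± 3.93 CPM and 103 ± 33.6 CPM. Their log2 fold changes of 0.17 and 0.19 did not pass (edgeR adjusted p = 0.658 and 0.684) and were negative with library totals and with hepatocyte markers as the scaling. Under those scalings the median of all genes was -0.30 and -0.75. The receptor's own kinase gene Jak2, chosen here after its values were seen, was at 20.7, 26.5 and 26.2 CPM in Cyr61 KO livers and at 22.8, 20.8 and 18.5 CPM in control livers, and the groups overlapped.

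Among 10 outputs of the hormone and liver factors of the same network, 0 were called by edgeR and 1 by DESeq2, at a median log2 fold change of 0.76. The unadjusted p was below 0.05 for 3 of the 10, near the 27.4% of all tested genes. Hnf4a, the nuclear receptor gene of hepatocyte identity, averaged 620 ± 134 CPM in Cyr61 KO and 349 ± 166 CPM in control livers (SD, n = 3 each), and Cebpa 710 ± 166 CPM and 417 ± 167 CPM. Their log2 fold changes of 0.83 and 0.77 did not pass (edgeR adjusted p = 0.228 and 0.225), and the lowest library was control replicate 2 for both. Igf1, the growth factor gene that carries much of the hormone's effect on the body, and Onecut1, a growth hormone-induced factor gene, were chosen after their values were seen. Igf1 was at 409, 448 and 468 CPM in Cyr61 KO livers and at 375, 510.2 and 499 CPM in control livers, a log2 fold change of -0.06 ± 0.26 (SE). The groups overlapped. Onecut1 was at 2.08, 40.8 and 33.8 CPM in Cyr61 KO livers and at 2.61, 5.03 and 5.48 CPM in control livers. Cyr61 KO replicate 1, the library with the most Bcl6, had the least Onecut1 of all 6.

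Male-biased liver genes moved in both directions. Of 22 listed genes 21 were tested. Of these, 2 were called higher and 1 lower, against 1.07% and 2.37% of all tested genes. Log2 fold changes were positive for 15 and negative for 6, at a median of 0.62. Over all 13563 tested genes 6561 were positive and 7002 negative, at a median of -0.03. Elovl3, a fatty acid elongase gene, was at 525, 239 and 203 CPM in Cyr61 KO livers, against 58.7, 39.9 and 36.4 CPM in control livers, and rose by a log2 fold change of 2.84 ± 0.42 (SE, edgeR adjusted p = 0.0195). Sdr9c7, a short-chain dehydrogenase gene, was at 52.4, 107 and 53.0 CPM against 19.0, 6.44 and 12.3 CPM in control livers, and rose by 2.49 ± 0.44 (SE, edgeR adjusted p = 0.0288). Gstp2, a glutathione transferase gene with a close copy, Gstp1, fell to 5.28 ± 0.149 CPM in Cyr61 KO livers, against 12.9 ± 3.66 CPM in control livers (SD, n = 3 each), a log2 fold change of -1.29 ± 0.27 (SE, edgeR adjusted p = 0.0434). Neither Elovl3 nor Sdr9c7 passed without Cyr61 KO replicate 1 (edgeR adjusted p = 0.0615 and 0.0812) or without Cyr61 KO replicate 2 (0.0588 and 0.105). Sdr9c7 also missed with library totals (0.0568). Gstp2 did not pass when any 1 of the 6 libraries was left out (edgeR adjusted p from 0.0518 to 0.196), nor with library totals (0.0834), hepatocyte markers (0.0674) or the replicate block (0.0578). Serpina1e, an alpha-1 antitrypsin copy, Mup3, a major urinary protein gene, and Mup20, a male-specific pheromone gene, were chosen after their values were seen. They belong to families of near-identical copies. Serpina1e was at 633, 476 and 256 CPM in Cyr61 KO livers and at 1733, 1103 and 3949 CPM in control livers (log2 fold change -2.31, edgeR adjusted p = 0.0544). Mup3 was at 6514, 7114 and 2630 CPM against 1403, 720 and 1924 CPM (log2 fold change 2.01, edgeR adjusted p = 0.0682). Mup20 was at 23650, 7853 and 9794 CPM against 17040, 7110 and 18890 CPM (log2 fold change -0.06, edgeR adjusted p = 0.955).

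Female-biased liver genes had 1 call among 19 tested of 25 listed, where 3.44% of all tested genes were called either way. At a median log2 fold change of -0.16, 8 of the 19 were positive and 11 negative. Several had few counts, and with a filter of at least 1 CPM in 3 libraries 12 were tested, at a median of -0.31. The sign of the median depended on the setting. It was 0.16 without control replicate 2, 0.03 without Cyr61 KO replicate 1 and 0.07 with limma voom, and negative in every other setting. The called gene, Atp6v0d2, encodes a proton pump subunit that macrophages also express, and fell to 1.03 ± 0.713 CPM in Cyr61 KO livers, against 8.997 ± 3.53 CPM in control livers (SD, n = 3 each). Its log2 fold change was -3.11 ± 0.53 (SE, edgeR adjusted p = 0.0272, lower in 3 of 3 libraries), and the macrophage markers, whose sums are given above, were lower as well; their part in this value was not tested. It did not pass without Cyr61 KO replicate 1 or 2 (edgeR adjusted p = 0.0893 and 0.115) or with library totals (0.0717). Cyp2a4, a steroid hydroxylase gene with the close copy Cyp2a5, was chosen after its values were seen. It was at 3.56, 2.23 and 98.5 CPM in Cyr61 KO livers and at 6.94, 12.5 and 7.52 CPM in control livers. The high value belongs to Cyr61 KO replicate 3, the library that also had the most Socs2 and Cux2 and the least Hsd3b5 and Slco1a1 among the knockouts. Cyp2b9, another female-biased gene, was likewise highest there, at 4.99 CPM, against 0.743 and 2.63 CPM in the other knockouts and 0.340 to 0.998 CPM in the controls. Ranked over all 6 libraries, the lists were mixed. In control replicate 2, the library with 50.9% of its reads in genes, 13 of the 21 tested male-biased genes were at their lowest and 2 at their highest. Of the 19 tested female-biased genes 8 were at their highest in that library and 3 at their lowest. In Cyr61 KO replicate 3, 6 of the 19 tested female-biased genes were at their highest and 3 at their lowest, among them Cyp17a1 at 8.19 CPM. Of the 21 tested male-biased genes 4 were at their highest there and 1 at its lowest, and Cyp4a12a, at 203 CPM, was among these 4. The 25 female-biased genes summed to 118, 146 and 335 CPM in Cyr61 KO livers and to 241, 256 and 221 CPM in control livers. The 22 male-biased genes summed to 37850, 20550 and 17180 CPM against 25130, 11310 and 30910 CPM. Such sums rest mostly on the genes of highest level. Ranks among the knockouts alone were not counted. Cyp2b9, Cyp17a1 and Cyp4a12a were likewise picked with their values in view.

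**Figure D3:**
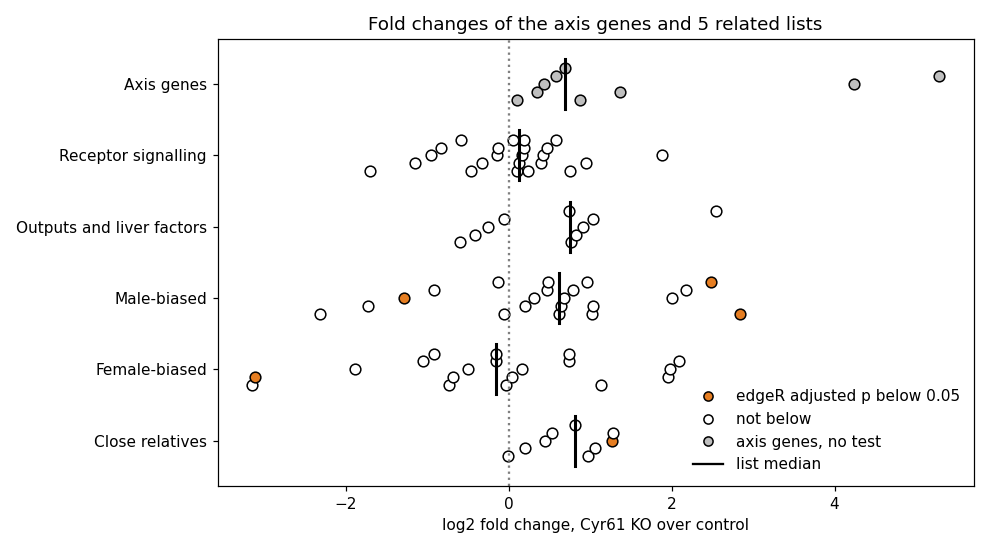
Log2 fold change of Cyr61 KO over control (horizontal axis) of every tested gene in 6 groups, 1 circle per gene, orange where edgeR's adjusted p was below 0.05, with a line at each group's median. The axis genes, picked with these values in view, are grey and carry no test; the male-biased genes spread from -2.31 to 2.84 and the female-biased from -3.15 to 2.10, with 3 and 1 called.

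**Figure D4:**
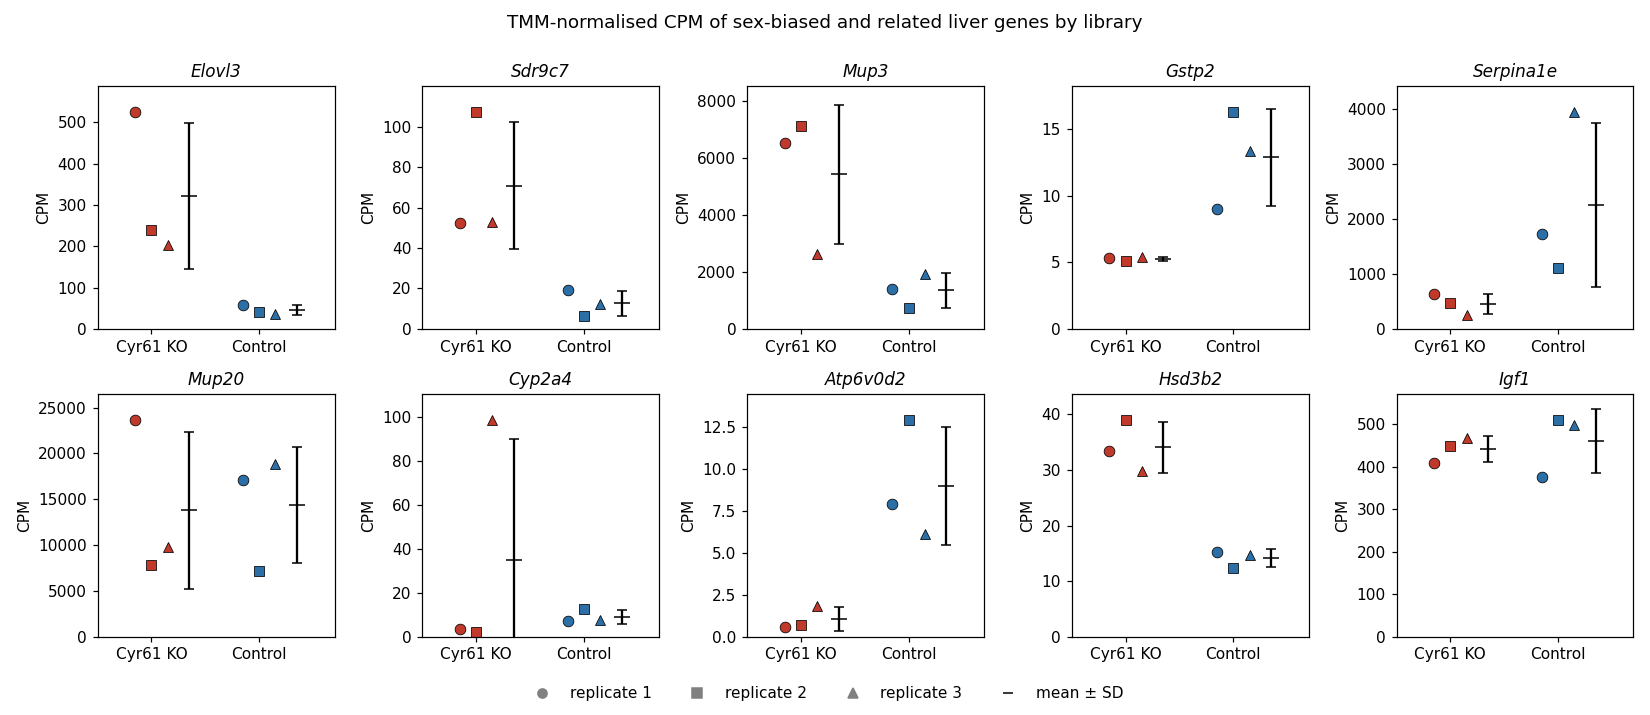
TMM-normalised CPM (vertical axis, linear) of 10 sex-biased or related liver genes in 3 Cyr61 KO and 3 control libraries, 1 symbol per library, with the mean and SD (error bars end at 0 where they would pass below it). Elovl3, Sdr9c7, Mup3 and Hsd3b2 lie above all controls in every knockout, and Gstp2, Serpina1e and Atp6v0d2 lie below. Igf1 and Mup20 overlap, and Cyp2a4 stands at 98.5 CPM in Cyr61 KO replicate 3 alone.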

How the data were processed

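The authors deposited raw read counts per gene for each library, unstranded and for either strand. Trimmomatic 0.38, STAR 2.6.1a and the builds hg38 and mm10 are listed per the submitters' processing notes; the annotation release is not given in the sources used here. Counts on the strand of the directional kit were used. Reads outside genes, multimapped, ambiguous or unmapped stayed out of library sizes; 50.9% to 87.6% of a library was in genes.

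All genes were tested with edgeR 4.0.16 (two-sided quasi-likelihood F test, Benjamini-Hochberg adjustment) in R 4.3.3, after filterByExpr (minimum count 10, minimum total 15) and TMM scaling, with group as the only term. A call is an adjusted p below 0.05. The SE is the size of the log2 fold change divided by the root of F. The code was checked on simulated counts. Libraries differed by at least 58.3 in chi-square per degree of freedom, beyond sampling noise. Labels name no separate animals, so p-values measure the spread between libraries, which may be technical. Exons come from GENCODE M21 (GRCm38, as mm10) and promoters from RefSeq.

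The axis genes and lists were chosen with earlier results of these data known. Named genes were the axis genes, Cyr61, up to 4 called genes by p per list (the 2 of highest CPM where none was called), relatives of at least 1 CPM, and the 3 nearest patterns to Hsd3b5, Slco1a1, Cux2 and Socs2. Of 155 listed symbols 154 were found. Alternatives were DESeq2 1.42.0, limma 3.58.1 voom with quality weights, other scalings and filters, unstranded counts, a replicate block, each library left out and, added after the data were seen, scaling to hepatocyte markers.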

Additional observations from a re-analysis of the deposited data

How the results depend on the processing

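Slco1a1, Hsd3b5, Ghr, Prlr and Stat5b had positive log2 fold changes in all 16 settings, and Stat5a in 15, all but hepatocyte marker scaling. Cish was positive in 14, Bcl6 in 13 and Socs2 in 10, and Cux2 passed the filter in 5, all positive. Slco1a1 ran from 3.71 to 4.55 and Hsd3b5 from 4.72 to 6.06.

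Called genes numbered 467, and 2273 with DESeq2, 4483 with voom and quality weights, 50 with library totals, 944 without the filter and 7 to 878 with a library left out, the lowest without Cyr61 KO replicate 1. Library totals moved the median of all genes to -0.30 and hepatocyte markers to -0.75. In the order signalling, outputs, male-biased, female-biased and relatives, edgeR called 0, 0, 3, 1 and 1. DESeq2 called 3, 1, 8, 4 and 4, voom 10, 6, 10, 7 and 6, and the unfiltered fit 2, 1, 5, 3 and 1. Library totals left 0, 0, 1, 0 and 0, and hepatocyte markers gave 1, 0, 5, 2 and 0. With a library left out the counts ran from 0 to 2, 0 to 1, 0 to 4, 0 to 2 and 0 to 1.

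Genes that missed the threshold changed sign as follows. With library totals Jak1, Stat3 and Stat6 were at -0.065, -0.027 and -0.053, above the median of all genes at -0.30. With hepatocyte markers these and Cux1 were at -0.45, -0.37, -0.48 and -0.29, above the median of all genes at -0.75. Stat3 was at -0.029 without control replicate 2. Bcl6b, at -0.0023, was at 0.013 with DESeq2, 0.012 with its size factors, 0.39 with voom, 0.047 unfiltered, 0.077 with the replicate block and -0.19 to 0.41 with a library left out. The cause was not tested.

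Deviations of same-numbered libraries from their group means correlated at -0.062, -0.24 and -0.45. Deviations within a group sum to 0 over only 3 libraries, so these values cannot decide whether replicate numbers pair libraries. The replicate block gave 633 calls, against 467 without it, and 2 signalling genes.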

Other observations

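Reads on the strand opposite to Slco1a1 numbered 17, 4 and 21 in Cyr61 KO libraries and 36, 56 and 43 in control libraries, where they made up 0.0320% to 0.345% and 5.49% to 17.1% of the gene's stranded counts. For Prlr they numbered 28, 14 and 26 in Cyr61 KO libraries and 39, 28 and 22 in control libraries, 0.974% to 2.84% and 3.22% to 13.9%. Stat5a had 25 such reads in control replicate 2 and at most 4 in any other library. Hsd3b5 had none in the 6 libraries.

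Several further regulators of the axis varied between libraries of one group. Socs3, another feedback gene, was at 36.1, 12.4 and 9.05 CPM in Cyr61 KO livers and at 21.5, 22.6 and 11.1 CPM in control livers, highest in Cyr61 KO replicate 1, as was Bcl6. Irs2, an insulin receptor substrate gene, was at 8.14, 13.4 and 26.7 CPM in Cyr61 KO livers and at 6.01, 2.55 and 4.55 CPM in control livers, without overlap (log2 fold change 1.88 ± 0.47 SE, edgeR adjusted p = 0.0635). Sirpa, an inhibitory receptor gene of myeloid cells, was at 24.4, 19.9 and 80.0 CPM in Cyr61 KO livers and at 141, 146 and 116 CPM in control livers (log2 fold change -1.70 ± 0.49 SE, edgeR adjusted p = 0.0821). Every knockout lay below the controls for Sirpa. The summed macrophage markers were lower in the knockouts as well, and their part in the Sirpa values was not tested. Socs3, Irs2 and Sirpa were picked with their values in view.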
